A study of Homo sapiens with 3 samples.

Results

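The genes described here are 47 genes of the actin cytoskeleton and of contractile filaments, chosen by name for what their proteins do, out of 22714 gene names in the files. All 47 were found in the 3 RNA-seq libraries, which were made from the Ewing sarcoma cell line TC32. The genes make up 9 groups by role, which are the actin isoforms, thin filament and smooth muscle regulators, non-muscle myosin, filament crosslinkers, actin monomer binding and turnover, the Arp2/3 complex and capping protein, LIM domain adaptors, membrane linkers, and the transcription factor SRF with its cofactor MKL1. The control library came from TC32 cells labelled WT Control. The knockdown library came from TC32 cells with EWS-FLI1, the fusion transcription factor of Ewing sarcoma, knocked down (shEF in its title), by a construct and for a time that the labels do not give. The third library came from cells held for 15 hours in 3 µM YK-4-279, a small molecule given in DMSO and described as an inhibitor of EWS-FLI1 that keeps it from binding an RNA helicase. All cells grew in RPMI medium with serum, and whether the control received DMSO or a control for the knockdown is not stated. With 1 library per group, no value below has a replicate check, no test was made, and "higher" and "lower" describe these libraries.

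Actin monomers join into filaments that give cells their shape and, with myosin, their pull. Tropomyosin, caldesmon, calponin and transgelin decorate filaments in contractile cells, thymosins and profilins hold the pool of monomers, cofilins sever filaments, and the Arp2/3 complex branches them. Many of these genes are known targets of SRF, which binds a motif called the CArG box and whose cofactor MKL1 is held in the cytoplasm by free actin monomers. Ewing sarcoma cells are small and round with few stress fibres, and EWS-FLI1 is known to repress a mesenchymal programme in them that holds many contractile genes.

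Promoters are shown for ACTA2 and ACTG2, the 2 actin isoforms of smooth muscle, because these had among the largest differences with both treatments. Those of CNN2 and ACTN1 are shown because, with ACTG2, they are the genes called higher after knockdown that hold a full CArG box. That of SRF itself is added for comparison. Each run is the 250 bases before a start site in RefSeq, build GRCh38.p14, 5′ to 3′, with the matches in capitals. The ACTA2 and ACTN1 genes have other start sites in the table without a match before them. Coordinates belong to that build, whereas the deposited values were made on hg19.
ACTA2, chr10:88952774-88953023, minus strand: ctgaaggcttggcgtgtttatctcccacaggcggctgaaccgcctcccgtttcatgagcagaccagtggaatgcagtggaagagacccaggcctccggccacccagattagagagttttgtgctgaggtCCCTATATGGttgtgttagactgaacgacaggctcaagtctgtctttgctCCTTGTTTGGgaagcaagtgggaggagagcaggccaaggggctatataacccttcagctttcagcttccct
ACTG2, chr2:73892758-73893007, plus strand: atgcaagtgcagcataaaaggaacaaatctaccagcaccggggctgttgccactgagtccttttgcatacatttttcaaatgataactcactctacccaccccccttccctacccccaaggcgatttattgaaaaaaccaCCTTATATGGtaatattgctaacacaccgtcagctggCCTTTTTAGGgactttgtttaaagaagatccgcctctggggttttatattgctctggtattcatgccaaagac
CNN2, chr19:1026358-1026607, plus strand: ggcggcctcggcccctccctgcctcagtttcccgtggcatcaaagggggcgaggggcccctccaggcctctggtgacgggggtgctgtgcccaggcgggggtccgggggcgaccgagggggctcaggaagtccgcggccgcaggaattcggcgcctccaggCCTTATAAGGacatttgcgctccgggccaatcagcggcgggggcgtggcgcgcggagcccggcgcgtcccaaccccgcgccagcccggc
ACTN1, chr14:68977567-68977816, minus strand: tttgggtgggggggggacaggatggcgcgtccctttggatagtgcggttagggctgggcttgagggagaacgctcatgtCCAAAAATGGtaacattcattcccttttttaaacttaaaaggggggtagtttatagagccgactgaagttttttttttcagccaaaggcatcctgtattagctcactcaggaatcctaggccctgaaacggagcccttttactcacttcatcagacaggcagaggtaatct
SRF, chr6:43171019-43171268, plus strand: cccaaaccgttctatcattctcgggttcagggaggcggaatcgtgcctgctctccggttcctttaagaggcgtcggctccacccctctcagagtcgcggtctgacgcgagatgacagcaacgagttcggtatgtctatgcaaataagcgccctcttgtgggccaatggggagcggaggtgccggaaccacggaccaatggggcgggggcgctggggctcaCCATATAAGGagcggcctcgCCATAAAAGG

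Counted from the start site, the 2 matches of ACTG2 began at -110 and -73, and those of SRF at -30 and -10. The match of ACTN1 began at -171 and that of CNN2 at -89. The 2 matches of ACTA2, at -121 and -71, have 1 G or C among the 6 central bases and so fit only the looser form of the motif. The search ran on both strands over 300 bases, from 250 before to 50 after each start, and a match in any start site of a gene counted. RefSeq promoters were matched for 42 of the 47 genes, and ACTB, TAGLN, MYL9, PFN2 and ARPC1B were not matched. A full CArG box stood in 7 of these 42 (16.7%), against 438 of 27305 genes in the table (1.60%). The 7 were ACTG1, ACTG2, TPM4, CNN2, ACTN1, FLNA and SRF. Of the 12 matched genes called higher after knockdown 3 had the box, and of the 8 called lower 0 had it. It stood in 3 of the 17 matched genes called neither way, so most genes that were higher had no full box in this window. The looser form stood in 15 of 42 (35.7%), against 9.88% of all genes, in 6 of the 12 called higher and in 1 of the 8 called lower. The looser form includes the full box. A match describes letters only, and its part in expression was not tested.

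Expression is given as FPKM, fragments relative to transcript length and to the size of the library, which the authors deposited. Deposited values of the 3 libraries lay several-fold apart in overall scale. For this reason "scaled FPKM" is the deposited value times 0.325 for the control, 1.44 for knockdown and 2.12 for YK-4-279. These factors give each library the same median ratio, over compared names, to the geometric mean of the 3 libraries. The "relative log2 ratio" is the difference of log2(scaled FPKM + 1), it understates the change of scarce genes, and a gene was called at an absolute ratio of 1 or more. A gene name was compared where its mean deposited FPKM was at least 1, which held for 9939 names and for 41 of the 47 genes. As estimated from steps in the low values, 1 fragment in 1 kilobase was worth 0.0651 FPKM in the control, 0.0173 after knockdown and 0.0131 with YK-4-279, and the standard errors (SE) below cover that counting error only. FLI1, which gives the 3′ part of the fusion, had a scaled FPKM of 21.4 in control cells, 2.13 after knockdown and 17.6 with YK-4-279.

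After knockdown 13 of the 41 compared genes were higher (31.7%) and 8 were lower (19.5%), against 17.3% higher and 17.0% lower among all 9939 compared names. With YK-4-279, 4 were higher (9.76%) and 1 was lower (2.44%), against 2.41% and 1.69% of all names. The median relative log2 ratio of the 41 genes was 0.58 after knockdown and 0.12 with YK-4-279, with 0.01 and 0.03 over all names. The share of genes called lower was thus near that of all names in both comparisons. Factors taken over all named genes, scarce ones included, shift the median of all compared names to -0.50 after knockdown and -0.38 with YK-4-279. The counts then became 10 higher and 14 lower after knockdown, beside 9.17% and 33.8% of all names, and 4 higher and 6 lower with YK-4-279, beside 1.56% and 8.18%. Ratios of deposited values centred on their median gave 13 higher and 14 lower after knockdown, beside 22.2% and 23.6% of all names, and 8 higher and 5 lower with YK-4-279, beside 12.3% and 4.49%. As deposited, without scaling, 7 were higher and 27 lower after knockdown, beside 3.03% and 71.4% of all names, and 2 higher and 35 lower with YK-4-279, beside 0.573% and 92.2%. The direction of the balance between higher and lower therefore depended on the scale. On each of these scales 7 genes (ACTA2, ACTG2, TAGLN, TPM1, CALD1, MYH9 and TMSB4X) were called higher after knockdown. Among them ACTA2, ACTG2 and TAGLN had under 1 FPKM in the control as deposited and passed the filter only through treated libraries. Their place among the 7 was thus partly set by the filter.

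**Figure D1:**
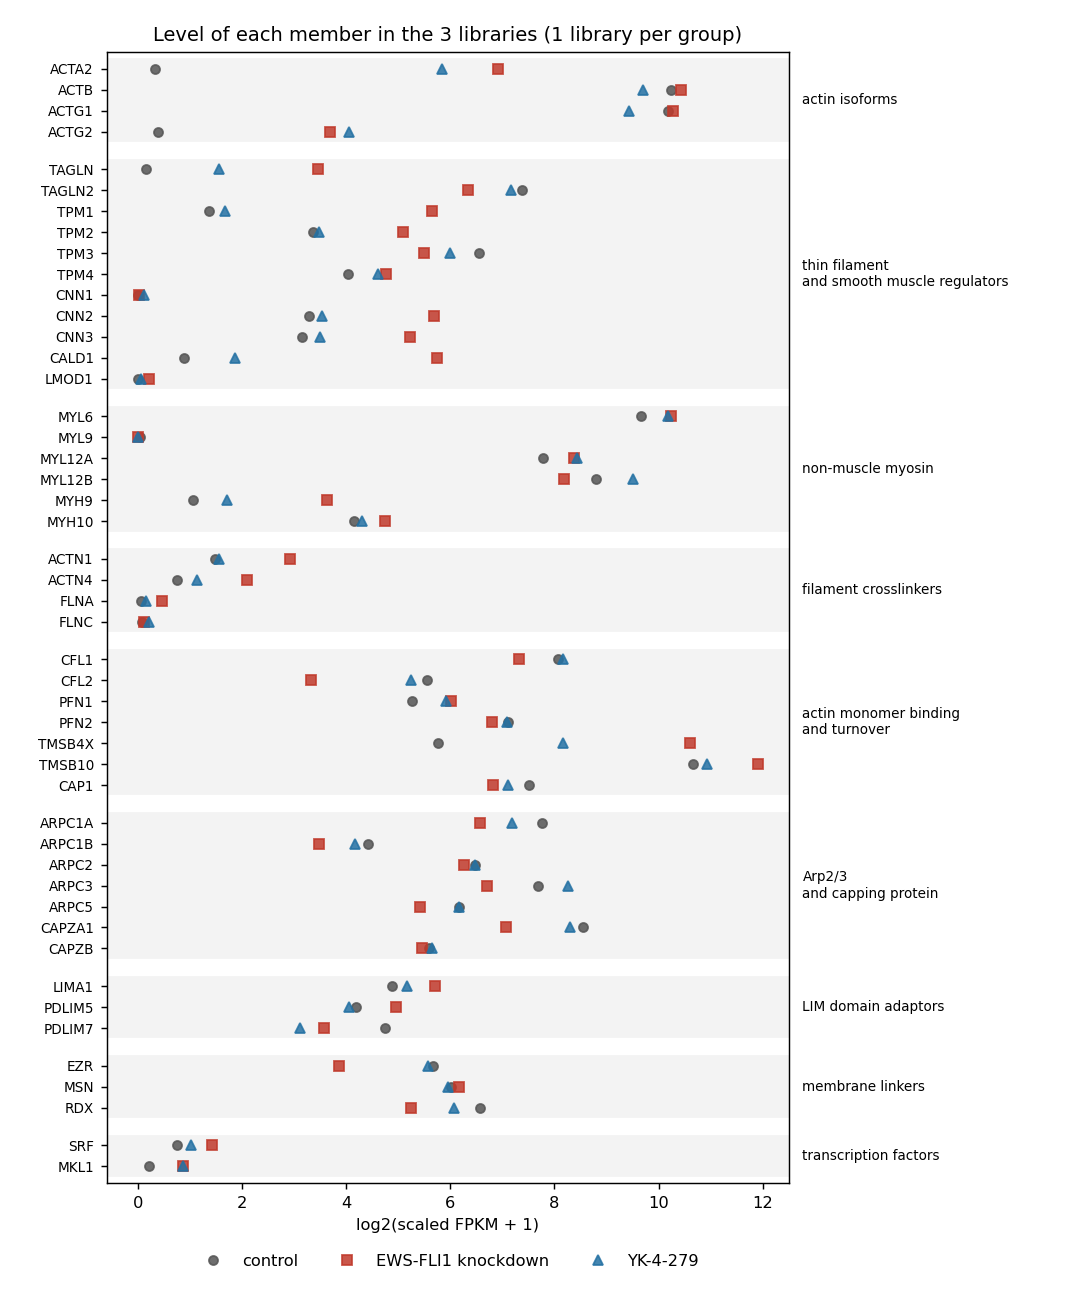
Level of each of the 47 genes as log2(scaled FPKM + 1) in the control (circles), EWS-FLI1 knockdown (squares) and YK-4-279 (triangles) libraries, grouped by role, with 1 library per group and no error bars. ACTA2 rises from 0.253 scaled FPKM in the control to 119.9 and 56.2, whereas ACTB and ACTG1 stay among the highest points in all 3 libraries.

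The actin isoforms parted into 2 that were nearly absent from the control and 2 that were abundant throughout. ACTA2, smooth muscle alpha actin, stood at 0.253 scaled FPKM in the control, 119.9 after knockdown and 56.2 with YK-4-279. The control value rests on about 16.1 fragments (95% Poisson interval 9.15 to 26.0) and the others on about 6510 and 2730. Its relative log2 ratio was 6.59 (SE 0.07) after knockdown and 5.51 (SE 0.08) with YK-4-279, the 13th highest of 9939 names in each comparison, both of which use the same control library. ACTG2, smooth muscle gamma actin, stood at 0.310, 11.9 and 15.6 scaled FPKM, a ratio of 3.30 (SE 0.09) after knockdown and 3.67 (SE 0.09) with YK-4-279. It was the only 1 of the 13 genes higher after knockdown whose ratio was larger with YK-4-279. ACTA2, ACTG2 and TAGLN had under 1 FPKM in the control as deposited and entered the comparison only through the treated libraries, so they had to differ.

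ACTB and ACTG1, the cytoplasmic beta and gamma actins, were called in neither comparison. ACTB stood at 1211 scaled FPKM in the control, 1379 after knockdown and 827 with YK-4-279, and ACTG1 at 1160.2, 1248 and 690.1. Their ratios were 0.19 and 0.10 after knockdown and -0.55 and -0.75 with YK-4-279. Shares within a family do not depend on the scaling between libraries. ACTA2 held 0.01% of the summed FPKM of the 4 actin genes in the control, 4.35% after knockdown and 3.54% with YK-4-279. ACTB held 51.1% in the control and 52.0% with YK-4-279, and ACTG1 48.9%, 45.2% and 43.4%. Smooth muscle actins therefore stayed a small part of actin messenger RNA in every library. The reference gene tables hold 14 pseudogenes named after ACTB and 21 after ACTG1, and how reads that fit both were counted is not given in the sources used here. ACTA2 overlaps FAS and an antisense RNA, and the kit is not stated to mark strand. As deposited, FAS stood at 3.22, 1.53 and 2.19 FPKM, while ACTA2 stood at 0.778, 83.3 and 26.6.

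Thin filament and smooth muscle regulators held 6 of the 13 genes higher after knockdown, with 6 of 9 compared genes higher, 2 lower and a median ratio of 2.07. CALD1, caldesmon, stood at 0.866 scaled FPKM in the control, 53.0 after knockdown and 2.66 with YK-4-279. The ratio was 4.86 (SE 0.07) after knockdown and 0.97 (SE 0.09) with YK-4-279, just under the threshold. TPM1, alpha tropomyosin, stood at 1.59, 49.4 and 2.19, a ratio of 4.29 (SE 0.10) and 0.30 (SE 0.14). With YK-4-279 TPM1 stood near its control level, whereas CALD1 stood above it. TAGLN, transgelin (SM22), stood at 0.124, 10.0 and 1.95 scaled FPKM, and its control value rests on about 7.22 fragments (95% Poisson interval 2.81 to 14.4). Its ratio was 3.29 (SE 0.08) after knockdown and 1.39 (SE 0.12) with YK-4-279. TAGLN overlaps PCSK7 and an uncharacterised gene, which together stood at 5.50, 6.13 and 0.686 FPKM as deposited, so reads could be split between them.

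Calponins bind actin and slow myosin. CNN2 stood at 8.79 scaled FPKM in the control, 50.9 after knockdown and 10.6 with YK-4-279, a ratio of 2.41 (SE 0.05) and 0.25. CNN3 followed at 7.90, 36.5 and 10.3, with ratios of 2.07 (SE 0.05) and 0.34. CNN1, the calponin of mature smooth muscle, was at 0 FPKM as deposited in the control, at 0.0159 after knockdown and at 0.0436 with YK-4-279, about 1.51 and 5.42 fragments. LMOD1, a filament nucleator of smooth muscle, stood at 0.0161, 0.117 and 0.0238 FPKM, about 0.87, 23.8 and 6.38 fragments. Neither was compared. CNN2 has 11 named pseudogenes in the annotation.

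Tropomyosins wrap along filaments and set which proteins can bind them. TPM2 stood at 9.35, 33.0 and 10.2 scaled FPKM in control, knockdown and YK-4-279, a ratio of 1.71 (SE 0.07) and 0.12. TPM3 moved the other way, at 92.4, 44.0 and 62.6, with ratios of -1.05 and -0.55. TPM4 was called in neither comparison, at 15.4, 26.2 and 23.4. TPM3 made up 77.8% of tropomyosin FPKM in the control, 28.8% after knockdown and 63.6% with YK-4-279. TPM1 went from 1.34% to 32.4% after knockdown and 2.22% with YK-4-279, and TPM2 from 7.88% to 21.6% and 10.4%. The summed tropomyosin level changed less than its makeup, at 119, 153 and 98.4 scaled FPKM. A named pseudogene of TPM3 in the files stood at 64.6, 3.86 and 12.1 FPKM as deposited, next to 284, 30.5 and 29.6 for TPM3 itself. TAGLN2, a transgelin of many cell types, was lower after knockdown, at 166, 80.6 and 143 scaled FPKM and ratios of -1.03 and -0.21.

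**Figure D2:**
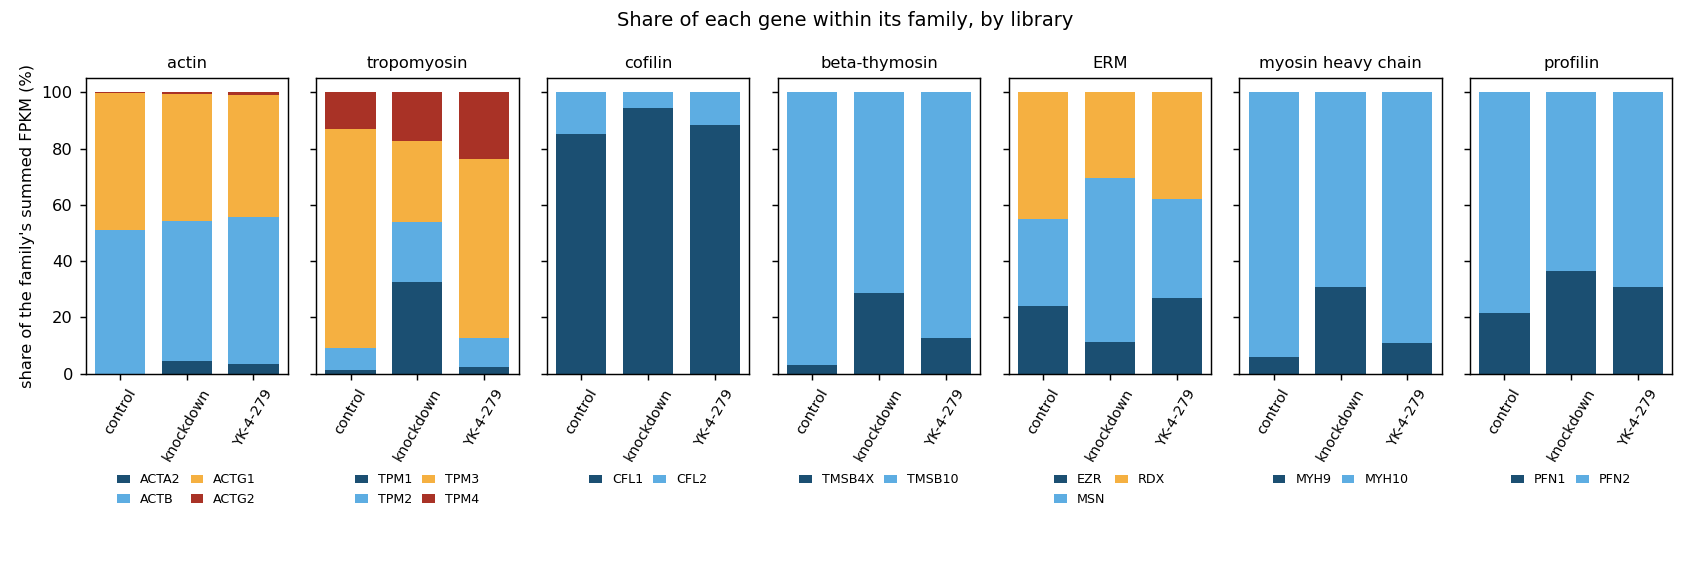
Share (%) of each gene in the summed FPKM of its family, as stacked bars for the control, EWS-FLI1 knockdown and YK-4-279 libraries (1 library each). TPM1 takes 32.4% of tropomyosin in the knockdown library against 1.34% in the control, and TMSB4X takes 28.8% of beta-thymosin against 3.20%.

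Non-muscle myosin showed 1 call in 5 compared genes after knockdown and 0 with YK-4-279. MYH9, the heavy chain of myosin IIA, stood at 1.09 scaled FPKM in the control, 11.5 after knockdown and 2.30 with YK-4-279. The ratio was 2.58 (SE 0.06) and 0.66 (SE 0.07). MYH10, the heavy chain of myosin IIB, stood at 16.8, 25.8 and 18.7, so that the share of MYH9 in both heavy chains was 6.07%, 30.8% and 10.9%. The light chain genes MYL6, MYL12A and MYL12B had ratios between -0.62 and 0.59 after knockdown and between 0.51 and 0.72 with YK-4-279. MYL6 was found only on a locus joined with MYL6B. MYL9, the regulatory light chain of smooth muscle, had 0.0953 FPKM in the control, about 2.82 fragments, and is listed at 0 in the other libraries.

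Filament crosslinkers gave 2 higher genes of 2 compared after knockdown. ACTN1 stood at 1.78, 6.55 and 1.97 scaled FPKM in control, knockdown and YK-4-279, and ACTN4 at 0.690, 3.29 and 1.19. These are the non-muscle alpha-actinins, which bundle filaments. Their ratios were 1.44 (SE 0.07) and 1.34 (SE 0.10) after knockdown and 0.09 and 0.38 with YK-4-279. Both fell just under the threshold after knockdown, at 0.94 and 0.96, with factors over all named genes. The filamins were scarce and not compared. FLNA stood at 0.155, 0.272 and 0.0581 FPKM as deposited, about 19.7, 130 and 36.6 fragments, and FLNC at 0.173, 0.0616 and 0.0737. Scaled, FLNA stood at 0.0502, 0.392 and 0.123 and FLNC at 0.0563, 0.0887 and 0.156.

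Genes of actin monomer binding and turnover moved in both directions. TMSB4X, thymosin beta 4, stood at 53.6 scaled FPKM in the control, 1549 after knockdown and 285 with YK-4-279. The ratio was 4.83 (SE 0.03) after knockdown and 2.39 (SE 0.04) with YK-4-279, the 46th and 65th highest of 9939 names. TMSB10, thymosin beta 10, was the most abundant of the 47 genes in every library, at 1623, 3834 and 1943, with ratios of 1.24 (SE 0.01) and 0.26. Its call after knockdown was lost with factors over all named genes, at 0.58. The thymosin genes both bind monomers, and TMSB4X went from 3.20% of their summed FPKM in the control to 28.8% after knockdown and 12.8% with YK-4-279. The annotation holds 8 pseudogenes named after TMSB4X and 2 after TMSB10.

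CFL2, the cofilin of muscle, had the lowest ratio of the 41 genes after knockdown. It stood at 45.8, 9.04 and 37.0 scaled FPKM, a ratio of -2.22 (SE 0.05) after knockdown and -0.30 with YK-4-279. CFL1, the common cofilin, was called in neither, at 266, 159 and 285. The share of CFL2 in cofilin FPKM was 14.7%, 5.39% and 11.5%. PFN1, PFN2 and CAP1, which bind monomers and recycle them, had ratios of 0.76, -0.30 and -0.68 after knockdown and of 0.67, -0.02 and -0.41 with YK-4-279.

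The 7 genes of the Arp2/3 complex and capping protein all had ratios below 0 after knockdown, from -1.48 to -0.13 with a median of -0.95. With YK-4-279 their median was 0.01, between -0.58 and 0.57, and 0 were called. CAPZA1, an alpha subunit of capping protein, stood at 373, 133 and 315 scaled FPKM and ARPC1A, a subunit of Arp2/3, at 217, 94.0 and 145. These were the 2 called lower after knockdown, at -1.48 and -1.20. ARPC3 fell short of the threshold at -0.98, with 206, 104 and 306 scaled FPKM, and was the highest of the group with YK-4-279. CAPZB had the highest ratio after knockdown, -0.13, at 47.4, 43.3 and 49.0.

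That pattern lay close to what all abundant genes showed. The compared names were ranked by their level in the YK-4-279 library and cut into 5 equal groups. That library enters the ratio after knockdown only through the library factors and the filter. Few names were called between it and the control (2.41% higher and 1.69% lower), so this rank lies near the control level. Part of a fall in ratio with rank can thus come from the ranking itself, and how much was not tested. The median ratio after knockdown was 0.65 in the least abundant group and -0.96 in the most abundant, where 47.5% were lower and 3.97% higher. Of the 41 genes, 25 stood in that most abundant group, with 3 higher, 7 lower and a median of -0.30. Set against names of like abundance, the 41 genes gave 21 higher and 2 lower, beside 14.0% and 9.10% of all names, and CFL2 (-1.26) and PDLIM7 (-1.30) were the 2. Against the same scale CAPZA1 was at -0.52, ARPC1A at -0.24, TPM3 at -0.09 and TAGLN2 at -0.07, while ACTB was at 1.15, ACTG1 at 1.07 and TMSB4X at 5.79. Of the 13 higher calls 11 were kept, and ACTN1 (0.98) and ACTN4 (0.70) were not. With YK-4-279 against control the 5 groups, ranked in the knockdown library, had medians between -0.03 and 0.08, and the counts stayed at 4 higher and 1 lower.

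**Figure D3:**
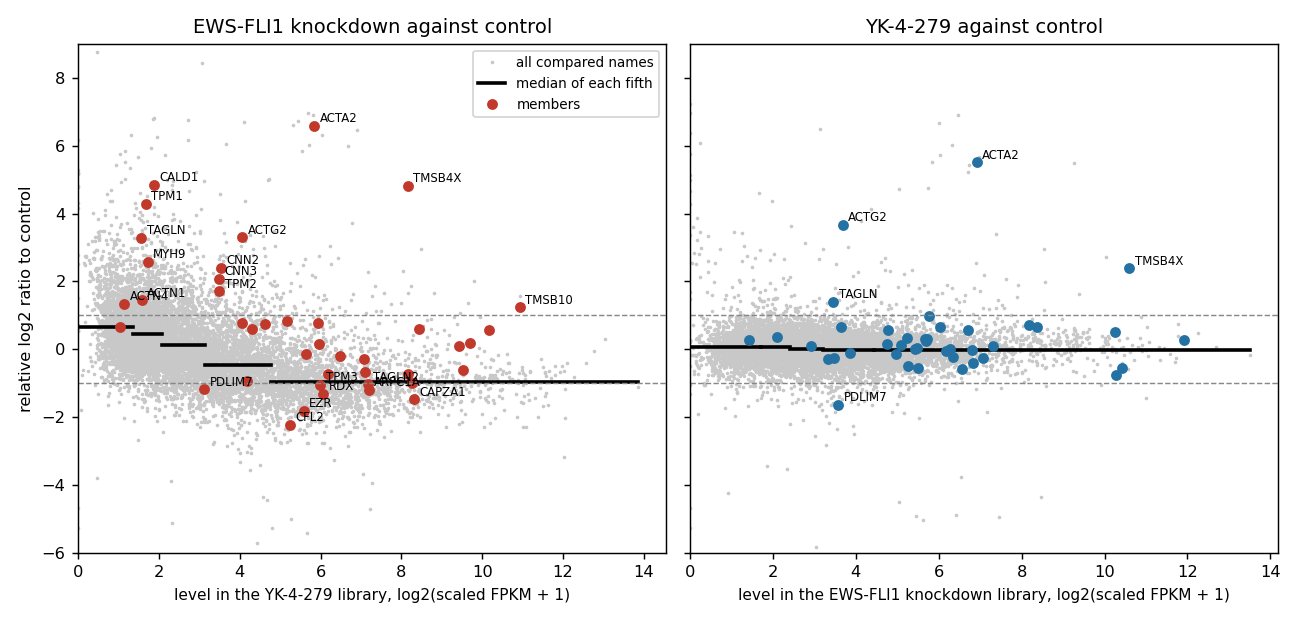
Relative log2 ratio to control of all compared names (grey dots) and of the 41 compared genes (coloured points, named past the dashed threshold of 1), against the level in the library outside each comparison as log2(scaled FPKM + 1). Black bars give the median of each of 5 equal groups of names, which falls from 0.65 to -0.96 after knockdown (left) and stays between -0.03 and 0.08 with YK-4-279 (right). Names beyond the axes are not drawn.

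LIM domain adaptors tie filaments to adhesions and to Z-discs. PDLIM7 was the only gene called lower in both comparisons, at 26.0 scaled FPKM in the control, 10.9 after knockdown and 7.67 with YK-4-279. Its ratio was -1.19 (SE 0.06) after knockdown and -1.64 (SE 0.07) with YK-4-279, the latter the 36th lowest of 9939 names. LIMA1 and PDLIM5 had ratios of 0.84 and 0.77 after knockdown and 0.29 and -0.14 with YK-4-279. The membrane linkers ezrin, moesin and radixin join filaments to the plasma membrane. EZR stood at 50.2, 13.6 and 46.9 scaled FPKM and RDX at 93.8, 37.2 and 66.1, with ratios of -1.81 (SE 0.04) and -1.31 (SE 0.03) after knockdown and -0.10 and -0.50 with YK-4-279. MSN was called in neither, at 63.6, 70.9 and 61.5. The leading linker of the 3 was RDX in the control (45.2% of their FPKM) and with YK-4-279 (37.9%), and MSN after knockdown (58.3%).

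The transcription factors were scarce. SRF stood at 0.694, 1.70 and 1.03 scaled FPKM, a ratio of 0.67 (SE 0.07) after knockdown and 0.26 with YK-4-279. MKL1 stood at 0.513, 0.584 and 0.389 FPKM as deposited, which is 0.167, 0.841 and 0.823 scaled, and was not compared.

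**Figure D4:**
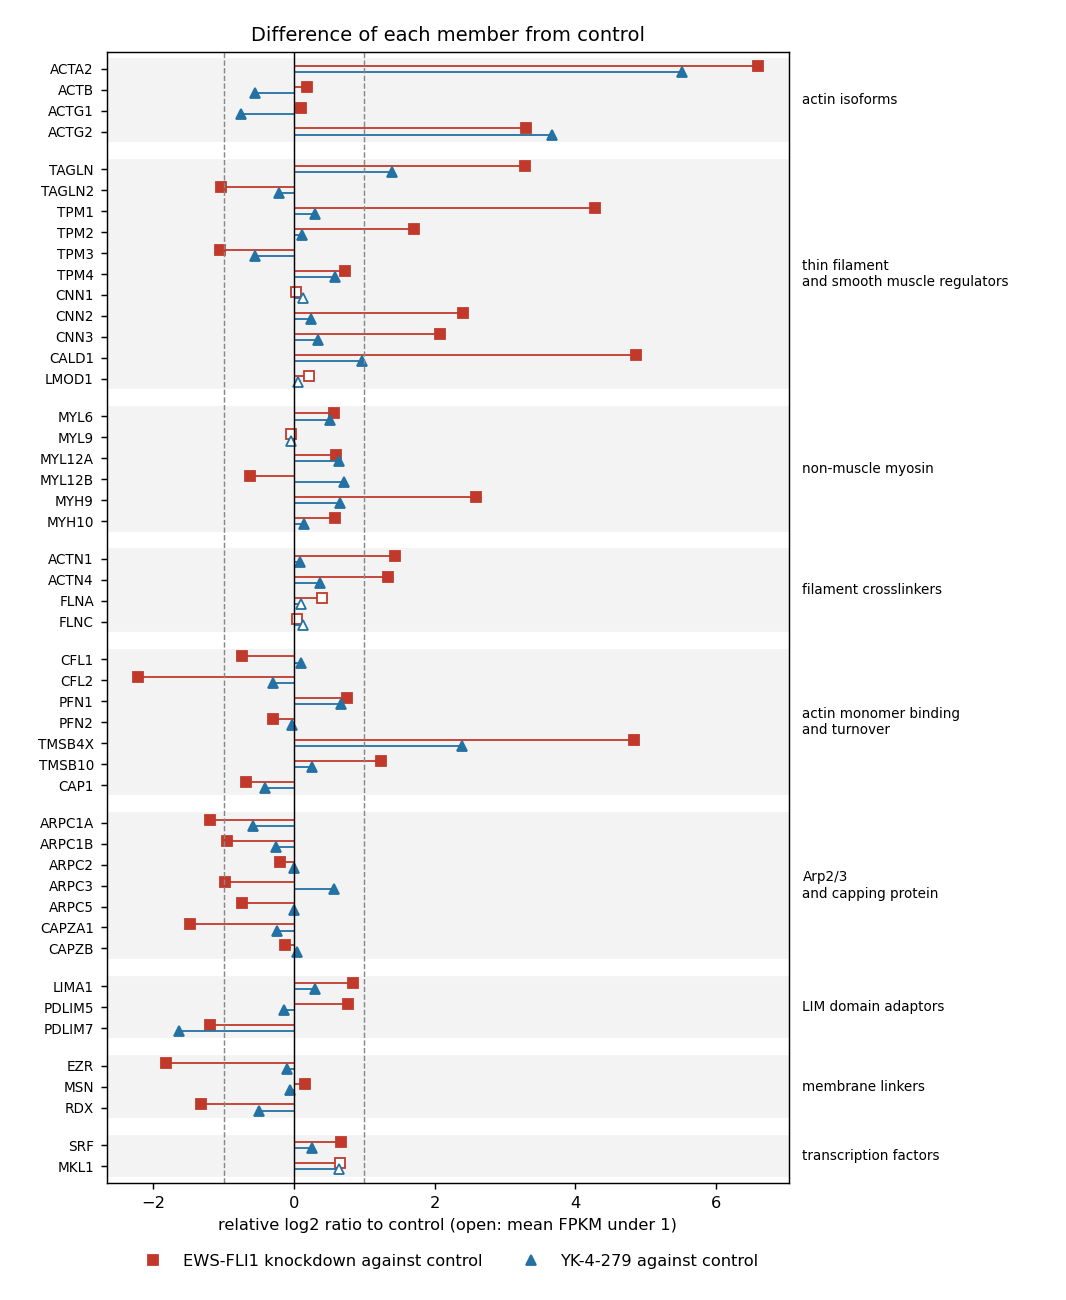
Relative log2 ratio to control of each gene for EWS-FLI1 knockdown (squares) and YK-4-279 (triangles), by role, with dashed lines at the threshold of 1 and open symbols for the 6 genes that were not compared. Squares of CALD1, TPM1, CNN2, CNN3 and MYH9 lie past the threshold while their triangles lie inside it, and ACTA2 and ACTG2 have both symbols past it.

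Across both comparisons, 4 genes were called higher in each (ACTA2, ACTG2, TAGLN and TMSB4X), 1 lower in each (PDLIM7) and 0 in opposite directions. A further 9 were called higher and 7 lower after knockdown only by the threshold, and 20 in neither. This split depends on the value added before the log2. With 0.1 added in place of 1, 6 genes were higher with YK-4-279, beside 6.33% of all names, and CALD1 and MYH9 joined them. The comparisons share the control library, so their agreement is no separate evidence. The same overlaps over all compared names were not counted, so whether these are many or few is not shown. ACTA2, ACTG2 and TAGLN had under 1 FPKM in the control as deposited and passed the filter only through treated libraries. Without any scaling, 10 of the 41 genes stood above their control value after knockdown (868 of all compared names) and 3 with YK-4-279 (136 of all).

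In the direct comparison of the treated libraries the control enters only through the library factors and the filter. With YK-4-279 against knockdown 5 of 41 genes were higher (12.2%) and 10 lower (24.4%), beside 15.3% and 14.5% of all names. Factors over all named genes gave 5 and 9, beside 18.4% and 11.7%, and deposited values 2 and 16, beside 5.08% and 21.5%. TPM1 (-3.98) and CALD1 (-3.88) were the 38th and 42nd lowest of 9939 names. The other 8 lower with YK-4-279 than after knockdown were TMSB4X (-2.44), CNN2 (-2.16), MYH9 (-1.92), TAGLN (-1.90), CNN3 (-1.74), TPM2 (-1.60), ACTN1 (-1.35) and ACTA2 (-1.08). The call of ACTA2 was lost with upper quartile scaling (-0.91), with factors over all named genes (-0.93) and against names of like abundance (-0.50). Higher were CFL2 (1.92), EZR (1.72), ARPC3 (1.55), MYL12B (1.34) and CAPZA1 (1.24). ACTG2, at 0.37, was called in neither direction. MYL12B, a regulatory light chain, stood at 288 scaled FPKM after knockdown and 730.1 with YK-4-279. Against names of like abundance, ranked in the control, 1 of the 5 remained higher, CFL2. The control lay near the YK-4-279 library, so the same limit of the ranking holds here. Duration of the knockdown is not given, so time under treatment and kind of treatment cannot be told apart.

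Lists of related genes that hold none of the 47 were read in the same way. Among all compared names 17.3% were higher and 17.0% lower after knockdown, and 2.41% and 1.69% with YK-4-279. Focal adhesion and bundling genes had 14 of 27 compared genes higher and 4 lower after knockdown, with a median of 1.16, and 3 higher and 0 lower with YK-4-279, with a median of 0.32. FHL1, a LIM protein of muscle, was highest in both, at 2.03, 39.8 and 14.3 scaled FPKM and ratios of 3.75 and 2.34. VCL, vinculin, which couples adhesions to actin, stood at 14.3, 155.7 and 18.0, a ratio of 3.36 after knockdown, 0.32 with YK-4-279 and -3.04 between the treated libraries. LCP1, a bundling plastin of blood cells, was lowest after knockdown, at 11.8, 1.24 and 20.4 and a ratio of -2.51. SYNPO, among the 14 higher, had 0.155, 2.51 and 0.426 FPKM as deposited. It passed the filter only through the knockdown library, so its call was partly set by the filter. ILK, named integrin-linked kinase, was lowest with YK-4-279 at -0.94. With factors over all named genes the counts after knockdown were 11 higher and 6 lower, beside 9.17% and 33.8% of all names. With YK-4-279 they were 1 higher and 4 lower with a median of -0.09, beside 1.56% and 8.18% of all names.

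Other nucleation, capping and severing genes had 6 of 24 higher and 1 lower after knockdown, with a median of 0.32. The median became -0.29 with factors over all named genes (3 higher, 5 lower). Under those factors 9.17% of all names were higher and 33.8% lower. CAP2 was highest at 1.83 and CAPZA2 lowest at -1.04. With YK-4-279 0 were called, between TWF1 at -0.57 and VASP at 0.67.

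Among SRF cofactors and ternary complex factors 1 of 4 compared genes was higher after knockdown, ELK3 at 1.54, MKL2 was lowest at -0.05, and 0 were called with YK-4-279. Smooth muscle differentiation markers had 5 of 15 genes compared, with NOTCH3 (1.23) and MYLK (1.03) higher and TNS1 (-1.46) lower after knockdown and 0 called with YK-4-279. With factors over all named genes, 0 of these were higher and 2 lower after knockdown, beside 9.17% and 33.8% of all names. With YK-4-279 the SRF cofactor list ran from ELK1 (-0.45) to ELK4 (0.28) and the smooth muscle list from TNS1 (-0.79) to CSRP1 (0.66). Between the treated libraries the nucleation list ran from EVL (-1.86) to CAPG (1.09). The focal adhesion list ran from VCL to LCP1 (3.26), the smooth muscle list from MYLK (-1.07) to CSRP1 (1.65) and the SRF cofactor list from ELK3 (-1.28) to ELK4 (0.15).

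**Figure D5:**
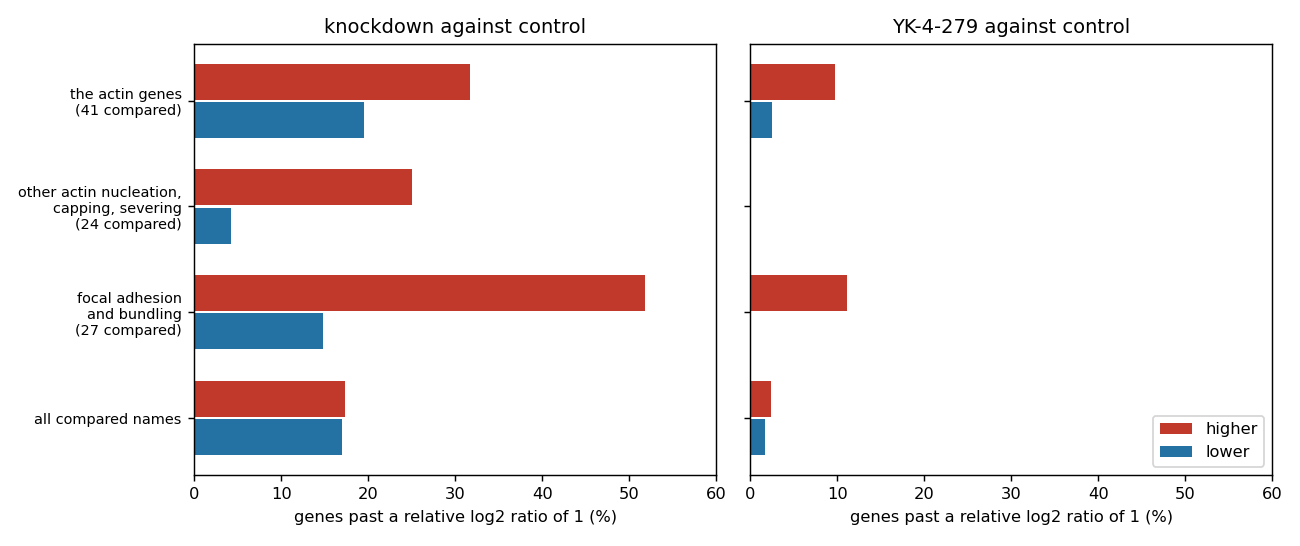
Percent of compared genes past a relative log2 ratio of 1, higher (red) and lower (blue), in the 41 actin genes, in 2 lists of related genes and in all 9939 compared names, for each treatment against control. After knockdown the actin genes stand at 31.7% higher and 19.5% lower, and all names at 17.3% and 17.0%.

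Markers of cell types were read beside these results. For scale, 17.3% of all compared names were higher and 17.0% lower after knockdown, and 2.41% and 1.69% with YK-4-279. Of 6 compared Ewing sarcoma markers 5 were lower after knockdown, with NR0B1 at -2.76, and the 8 markers summed to 488, 127 and 917 scaled FPKM in control, knockdown and YK-4-279, with CD99 listed at 0 in all 3. CAV1 alone stood at 247.5, 84.1 and 694.3, a ratio of 1.48 with YK-4-279, and the other 7 summed to 240.2, 43.3 and 223. Fibroblast markers summed to 26.7, 58.5 and 29.3, with 4 of 5 compared genes higher after knockdown, FAP at 1.86 highest, and DCN lower at -1.86. COL1A1, among the 4, had 0.948, 1.99 and 0.515 FPKM as deposited. It passed the filter only through the knockdown library, so its call was partly set by the filter. With YK-4-279 0 of the 5 compared fibroblast markers were called. THY1, of the same list, was not compared. It stood at 0.154, 0.0381 and 4.48 scaled FPKM, with ratios of -0.15 after knockdown and 2.25 with YK-4-279. Smooth muscle markers summed to 1.04, 3.77 and 2.94 scaled FPKM. Of these 6 genes only SMTN was compared, at a ratio of 0.996 after knockdown. CNN1 and LMOD1, among the 6, are also members of the actin set, so this list is not separate from it. The longer list of 15 smooth muscle differentiation markers, described above, summed to 46.5, 32.9 and 69.7 scaled FPKM. Within that list CSRP1 alone stood at 38.6, 18.9 and 61.3. The 7 skeletal and cardiac muscle markers summed to 0.186, 0.647 and 1.66 and the 4 endothelial markers to 0.131, 0.642 and 1.15, with 0 compared in each list. Leukocyte markers summed to 20.6, 27.5 and 15.0, with CD68 as the only gene compared. Epithelial markers summed to 2.53, 6.56 and 6.29, with KRT18 higher after knockdown at 1.18. The part of these markers in the actin results was not tested, and in bulk RNA more cells of a type and more RNA per cell cannot be told apart.

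By level, the 41 compared genes were abundant, with a median of 47.4 scaled FPKM in the control, 50.9 after knockdown and 56.2 with YK-4-279, beside 4.79, 5.89 and 4.87 over all compared names. The 47 genes held 1.47%, 3.27% and 1.53% of the FPKM of all named genes. Across the 46 genes with a transcript in GENCODE 29, level and transcript length had a Spearman correlation of -0.41 in the control, -0.53 after knockdown and -0.50 with YK-4-279. For level and GC content it was -0.37, -0.36 and -0.41. These describe genes within 1 library each, which share its depth and preparation, and the scarce members included the long, GC-rich FLNA and FLNC.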

How the data were processed

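The only values used were FPKM per locus, as the authors deposited them (88434 loci per library, 3 libraries). Per the submitters' processing notes, CASAVA 1.8.2, TopHat and Cufflinks 2.2.1 were used on build GRCh37 (hg19). Per the labels' protocols, SMARTer cDNA from total RNA was sonicated and amplified by PCR. The annotation, the authors' scaling and how reads that fit more than 1 place were treated are not given in these sources. A locus joined with another gene counted for both. The values of the library titled shEF are headed dEF, and its labels decided its group.

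Loci with a gene name (24751) were summed per name, and names with a mean FPKM of at least 1 were compared. Library factors were the inverse median, over compared names above 0 in all 3 libraries, of the ratio to the geometric mean. The planned wording did not limit the names to compared ones, so factors over all named genes (0.421, 1.18 and 1.92) are given as an alternative added after seeing the data. The scaling assumes that the median gene did not differ, and a shift common to all messenger RNA would go unseen. Each ratio adds 1 before the log2. The filter uses deposited values, so the control counts for most in it.

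The worth of 1 fragment was read from steps in low values, with control-to-library step ratios of 3.77 (knockdown) and 4.96 (YK-4-279). The step ratios used loci without a gene name that were above 0 in the control and the treated library. For knockdown 19.3% of these loci stood on steps, against a mean of 2.16% over all shifts searched, with 12.8% against 1.40% for YK-4-279. Fragments used GENCODE 29 transcript lengths, and SEs and intervals are approximate. Total depth is unknown.

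The members, gene lists and cell type markers were chosen with earlier results of these data known. Named genes are members past the threshold in any comparison, the highest and lowest of each role and list, scarce members, and FLI1; others were named after their values were seen. Python 3.11.15 with pandas 2.3.3, numpy 2.4.6 and scipy 1.17.1 was used, and the code was tested on simulated data. Other scalings, added values, filters, names and abundance ranks were tried as alternatives. The results of 1 gene list are not reported here.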

Additional observations from a re-analysis of the deposited data

How the results depend on the processing

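Counts below are higher and lower members in that order, for knockdown against control, YK-4-279 against control and YK-4-279 against knockdown. As deposited, without scaling, the counts were 7 and 27, 2 and 35, and 2 and 16, with medians of -1.57, -2.42 and -0.63. There TPM2 (-0.32), ACTN1 (-0.23) and TMSB10 (-0.91) after knockdown and TMSB4X (-0.29) with YK-4-279 turned direction, since the deposited values of most names lie lower in the treated libraries. Centred deposited ratios gave 14 lower after knockdown and 8 higher and 5 lower with YK-4-279, with medians of 0.18, -0.22 and -0.26. Factors over all named genes gave 14 and 6 lower against control, with medians of -0.086, -0.35 and -0.015. With 0.1 added before the log2 in place of 1, the counts were 14 and 9, 6 and 1, and 5 and 11. Beside them stood 24.3% and 20.5%, 6.33% and 2.90%, and 18.5% and 20.7% of all names. Against names of like abundance the counts were 21 and 2 after knockdown (median 1.06), beside 14.0% and 9.10% of all names, and 1 and 16 between the treated libraries (median -0.73), beside 7.91% and 12.6%. The median after knockdown was 0.22 without a filter on low values, 0.13 at a mean of at least 5 FPKM, 0.46 with upper quartile scaling and 0.39 with loci named by the symbol alone. Between the treated libraries it was -0.0079 at 5 FPKM and 0.012 with upper quartile scaling. The causes of these shifts, other than the construction named, were not tested.

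Under the 3 other scalings (upper quartile, centred and all named genes) 10 of the 13 genes higher after knockdown kept their call. So did all 8 lower, and all 4 higher and the 1 lower with YK-4-279. Each of these scalings moved the 8 further below 0, so it could not remove their calls. Between the treated libraries all 5 higher and 9 of the 10 lower kept their call, and ACTA2 did not. Against names of like abundance 11 of the 13 higher but only 2 of the 8 lower after knockdown were kept. There the 4 and the 1 with YK-4-279 were kept, as were 1 of the 5 and 9 of the 10 between the treated libraries. After knockdown and between the treated libraries, the abundance ranking itself can shift these ratios. As deposited 7 of the 13 kept their call, namely ACTA2, ACTG2, TAGLN, TPM1, CALD1, MYH9 and TMSB4X, and 2 of the 4, ACTA2 and ACTG2. The filter let ACTA2, ACTG2 and TAGLN in only through treated libraries, so their calls were partly set by it. No paired analysis was possible because each group has 1 library.

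Depth limits ACTA2, ACTG2 and TAGLN in the control, which rest on about 16.1, 21.6 and 7.22 estimated fragments. The spread between cultures is unknown for every gene.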
